A study of Mus musculus with 12 samples.

Results

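Untreated bone marrow-derived macrophages (BMDMs) in high-collagen gels were compared with untreated BMDMs in low-collagen gels, a comparison of collagen density in the absence of IL-4. The libraries were chosen by their labels, as the untreated libraries at 7 mg/ml and at 2 mg/ml of collagen, which gave 4 of the 12 libraries of the series, 2 at each density. All BMDMs came from wild-type C57BL/6 mice (C57BL/6J in the growth protocol), were grown from marrow in medium conditioned by L929 cells, and were then embedded in floating gels of rat tail collagen I and collected at 24 h. The other libraries were BMDMs given IL-4 at 20 ng/ml in gels of the same densities, used here for the collagen effect in separate libraries, and BMDMs on tissue culture (TC) plates without a gel, whose untreated levels are given for scale. The labels do not say whether replicates came from separate mice or cultures, so the p-values measure the spread between these libraries, which may be technical.

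Cells can bind fibrillar collagen through integrins and other receptors. In adhesive cells such as fibroblasts, pulling on the matrix is carried inward by actin filaments and adhesion proteins. The paper reports that BMDMs given IL-4 in collagen gels needed neither integrins nor nonmuscle myosin II to sense the matrix. Monomeric actin holds back MRTF, a cofactor of the transcription factor SRF. Targets of SRF and its cofactors include actin genes and immediate early genes such as those of the EGR family. Macrophages also shape their surroundings by secreting chemokines, fibronectin and proteases.

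Values are TPM, in which transcript abundance is corrected for length and every library has an equal sum. Read depth cannot be recovered from TPM and is unknown here. Lyz2 was the most abundant gene in each of the 4 libraries, and the 10 most abundant genes took 16.5% and 16.1% of the TPM in low-collagen gels and 17.5% and 17.8% in high-collagen gels. Mitochondrial transcripts took 3.30% and 4.07% in low-collagen gels and 3.97% and 3.72% in high-collagen gels, so these ranges overlapped. Among them, mt-Co1 did not overlap, at 6892 and 8396 TPM against 9865 and 9513 TPM (limma adjusted p = 0.115). The values of mt-Co3 were 5192 and 6049 TPM against 6320 and 6202 TPM (limma adjusted p = 0.339). The macrophage label was checked against markers. The 16 macrophage genes summed to 48964 and 51755 TPM in low-collagen gels and to 59534 and 59482 TPM in high-collagen gels. None was at 0 in all 4 libraries. Lyz2 made up most of these sums, so the difference between gels was mainly a difference in Lyz2.

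Markers of other cells were low. The 10 fibroblast markers summed to between 2.93 and 4.60 TPM, with Acta2 the most abundant and Lum and Postn at 0 in the 4 libraries. The 8 dendritic cell markers, the 10 markers of eosinophils, basophils and mast cells and the 8 lymphocyte markers had 0 members that reached the filter on low values. The 11 neutrophil markers summed to 38.0 and 52.6 TPM in low-collagen gels and to 36.7 and 33.3 TPM in high-collagen gels, led by Mmp8, with Ly6g and Mpo at 0. Here, as in any bulk sample, fewer cells of a type and less RNA per cell cannot be told apart.

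Without IL-4, the genes called lower in high-collagen gels included the immediate early genes Egr1, Egr2 and Egr3, the chemokines Ccl2 and Ccl7, the tubulin Tuba1c and the lysosomal Cd68. Those called higher included the chemokine receptor Ccr2, the integrin subunit Itgal, complement C3 and fibronectin (Fn1). Most called changes were under 2-fold. By limma on log2(TPM + 1), 951 of 11852 genes (filtered at an average of 1 TPM or more) were called at an adjusted p under 0.2, which is 8.02%. Among the 11153 protein-coding genes tested, 357 were called higher in high-collagen gels (3.20%) and 539 lower (4.83%). Of these, 30 rose and 28 fell at least 2-fold, and the median log2 fold change was 0.45 for the genes called higher and −0.40 for those called lower. The balance of directions depended on scaling: after median-ratio rescaling of the libraries 430 protein-coding genes were called higher (3.86%) and 401 lower (3.60%). Genes outside the protein-coding class made up 55 of the calls, of which 35 were processed pseudogenes, and they are not described further. The shares of 3.20% higher and 4.83% lower over protein-coding genes are those to set beside each list count below.

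The contrast was close in size to the spread between replicates. Across the genes tested, the Euclidean distance on the log2 scale between a low- and a high-collagen library was 49.6 on average, from 47.3 to 52.6 over the 4 pairs. Replicates lay 44.6 apart in low-collagen gels and 45.1 apart in high-collagen gels, so the distance between densities was 1.11 times that within them. An exact permutation test of 2 libraries against 2 cannot give a two-sided p under 0.333, so gene-level calls depend on limma's estimate of the spread, which pools genes and the 8 gel libraries. Groups without overlap therefore describe the values of a gene and add no support to its call. The share of all genes tested without overlap was not counted. Leaving out a library lowered the count of 951 to 190 without high untreated replicate 1, to 102 without high untreated replicate 2, to 649 without low untreated replicate 1 and to 233 without low untreated replicate 2.

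**Figure D1:**
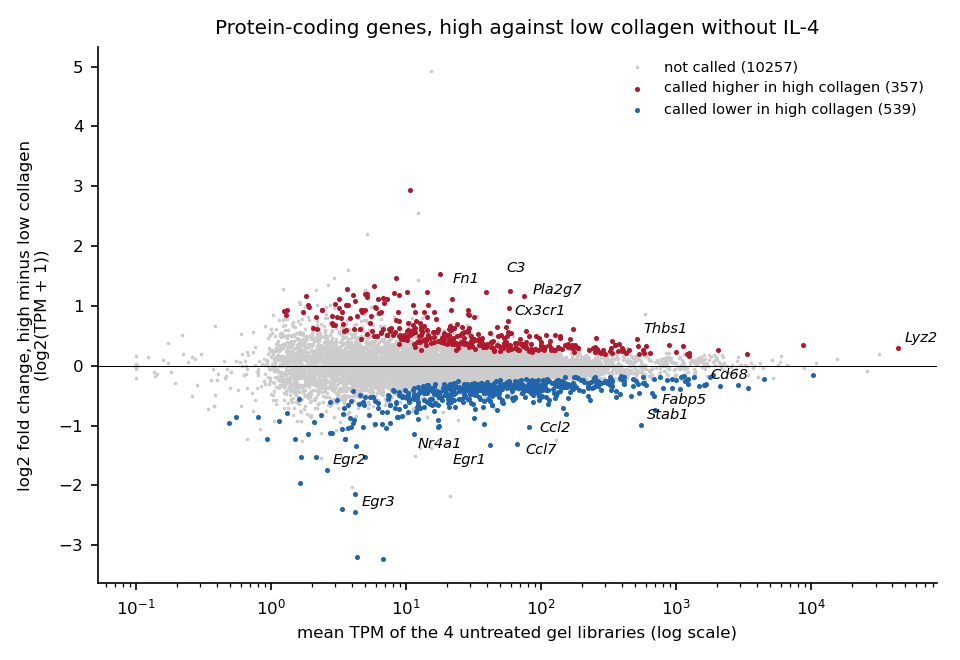
Each point is a protein-coding gene, with its mean TPM over the 4 untreated gel libraries on a log axis (drawn at 0.1 where lower) and its log2 fold change between high- and low-collagen gels on the log2(TPM + 1) scale. Red points are the 357 genes called higher and blue points the 539 called lower. Most called genes lie within 1 unit of 0, with Egr3 and Egr2 among the exceptions below.

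Immediate early genes are transcribed within minutes of a stimulus. Of the 24 members of the list of immediate early and AP-1 genes tested, 0 were called higher and 10 lower, with a median log2 fold change of −0.27 against −0.02 over all genes tested. This median was −0.48 without high untreated replicate 1 and −0.13 without high untreated replicate 2. The EGR transcription factors led the list on the log2(TPM + 1) scale. Egr1 was at 60.5 and 60.2 TPM in low-collagen gels and at 29.0 and 18.8 TPM in high-collagen gels, a log2 fold change of −1.33 (SE 0.202, limma adjusted p = 0.0497). Egr3 was at 8.50 and 7.13 TPM in low-collagen gels and at 0.419 and 0.819 TPM in high-collagen gels (−2.45, SE 0.224, limma adjusted p = 0.00981). Egr2 was at 4.09 and 4.97 TPM against 0.820 and 0.473 TPM (−1.75, SE 0.169, limma adjusted p = 0.0102). For each of these 3 genes each low-collagen value exceeded each high-collagen value by a wide gap. On the TPM scale the means differed 2.52-fold for Egr1, 7.00-fold for Egr2 and 12.6-fold for Egr3, and the fold change on the log2(TPM + 1) scale understates the change of the scarcer genes.

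Nr4a1 and Fosb followed with smaller changes on the log2(TPM + 1) scale. On the TPM scale their means differed 2.1-fold and 2.76-fold. Nr4a1, an orphan nuclear receptor, was at 25.1 and 21.6 TPM in low-collagen gels and at 13.5 and 8.76 TPM in high-collagen gels (−1.03, SE 0.233, limma adjusted p = 0.0979). Fosb, a subunit of the AP-1 transcription factor, was at 2.81 and 3.31 TPM against 0.965 and 1.26 TPM (−0.94, limma adjusted p = 0.117). High untreated replicate 2 held the lower value for Nr4a1, and high untreated replicate 1 for Fosb, and in neither gene did the groups overlap. Not every member moved. Fos, another AP-1 subunit, was at 98.6 and 91.9 TPM in low-collagen gels and at 107 and 67.9 TPM in high-collagen gels and was not called. Its high-collagen values lay on either side of the low-collagen ones. The count of 10 was 8 after median-ratio rescaling, 5 with no filter, 6 with no mean-variance trend, 9 without high untreated replicate 1, 3 without high untreated replicate 2, 6 without low untreated replicate 1 and 4 without low untreated replicate 2. Egr1 and Egr2 were called under each of the 17 alternative fits, and Egr3 under each of those whose filter it passed.

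SRF binds the CArG box, a motif of 10 bases, and promoters of the immediate early, actin and chemokine genes were searched for it because these lists had members called lower. The 250 bases before each RefSeq start site were read on both strands, with a gene counted as holding the motif if any of its start sites had it. RefSeq promoters were matched for 6 of the 10 immediate early genes called lower, and 2 of these, Dusp5 and Egr2, held a CArG box. Those not matched were Egr1, Egr3, Ier2 and Myc. Of the 14 members of that list with a promoter that were not called, 1 held it. Among all 27025 genes with a promoter, 1.62% held it, and among the genes tested 1.23%. Of the actin and adhesion genes called lower, 2 of 8 with a promoter held the box, Actg1 and Myl6, and Actb was not matched. Of the 31 actin and adhesion genes with a promoter that were not called, 2 held it (6.45%). The chemokine promoters held it in 0 of 3 genes called lower and 0 of 8 not called. The AP-1 motif TGANTCA was in 0 of 6 immediate early, 0 of 8 actin and 1 of 3 chemokine genes called lower, in 0 of 14, 4 of 31 and 1 of 8 not called, and in 5.39% of the genes tested and 7.82% of all genes with a promoter. The cyclic AMP response element TGACGTCA was in 1 of 6, 1 of 8 and 0 of 3 genes called lower, in 1 of 14, 0 of 31 and 0 of 8 not called, and in 3.18% of the genes tested and 1.77% of all. Egr2 had 5 start sites searched, 4 of them with a box, and Dusp5 had 1. Stretches that ran over an annotated exon were not printed, and Egr2 was the only gene left. It had 2 separate boxes, each 72 bases before a start site. They are on the + strand of GRCm38.p6 at chr10:67537454-67537543 and at chr10:67537757-67537846, with the boxes in capitals and 40 bases printed on each side.
Egr2 first box: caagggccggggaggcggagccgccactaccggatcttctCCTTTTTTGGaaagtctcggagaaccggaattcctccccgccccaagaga
Egr2 second box: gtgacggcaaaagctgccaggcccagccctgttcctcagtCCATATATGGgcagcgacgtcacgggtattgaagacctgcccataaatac
A match describes the letters in the window and not a site of binding.

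Chemokines are secreted proteins that attract leukocytes. Of 17 tested, 0 were called higher and 6 lower, also after median-ratio rescaling, with a median of −0.55. Ccl8, Ccl17 and Ccl22 passed the filter only through the libraries with IL-4, and with the filter on the 4 untreated libraries 14 were tested and 5 called lower, with a median of −0.57. Ccl2, which recruits monocytes, was at 82.2 and 138 TPM in low-collagen gels and at 64.8 and 41.3 TPM in high-collagen gels (−1.03, SE 0.266, limma adjusted p = 0.131). Ccl7, encoded beside it on chromosome 11 and also a ligand of the receptor CCR2, was at 72.9 and 116 TPM against 47.2 and 28.6 TPM (−1.30, SE 0.257, limma adjusted p = 0.0709). In both genes the replicates of each density differed by more than 1.5-fold. Low untreated replicate 2 was the highest library and high untreated replicate 2 the lowest. The groups did not overlap, as the rule that chose both genes among the largest falls required. Ccl4, another CC chemokine, was at 36.6 and 39.9 TPM against 26.1 and 22.3 TPM (−0.64, limma adjusted p = 0.108). Cxcl10, an interferon-induced chemokine, was at 5.71 and 7.75 TPM against 2.62 and 2.97 TPM (−1.02, limma adjusted p = 0.123). The 6 chemokine calls were 1 with no filter, 4 with no mean-variance trend, 3 without high untreated replicate 1, 7 without low untreated replicate 1, and 0 without high untreated replicate 2 or without low untreated replicate 2, where the median was −0.23 and −0.11. Untreated BMDMs on TC plates had far more Ccl2, at 1026 and 953 TPM. Among neutrophil markers, 1 of 4 tested was called, S100a8, lower at 11.8 and 12.5 TPM against 7.73 and 5.15 TPM (−0.84, SE 0.233, limma adjusted p = 0.146), with a median of −0.61 and 0 called in each fit without a library. Their part in the chemokine and immediate early falls was not tested.

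Leukocytes sense these proteins through surface receptors. Of 17 chemokine and chemoattractant receptors tested, 4 were called higher and 0 lower, with a median of 0.12, and the same 4 and 0 were counted after median-ratio rescaling. Ccr2, the receptor for Ccl2 and Ccl7, was at 22.1 and 23.5 TPM in low-collagen gels and at 36.4 and 33.6 TPM in high-collagen gels (0.60, SE 0.0995, limma adjusted p = 0.0585). Cx3cr1, the fractalkine receptor, was at 38.5 and 45.9 TPM against 72.4 and 70.2 TPM (0.75, SE 0.174, limma adjusted p = 0.103). Replicates lay close together for both receptors and every high-collagen value was above every low-collagen one. Ccr1, a receptor for several CC chemokines, rose by 0.37 (limma adjusted p = 0.0709). Without either high-collagen library 0 receptors were called, with 3 called without low untreated replicate 1 and 2 without low untreated replicate 2.

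**Figure D2:**
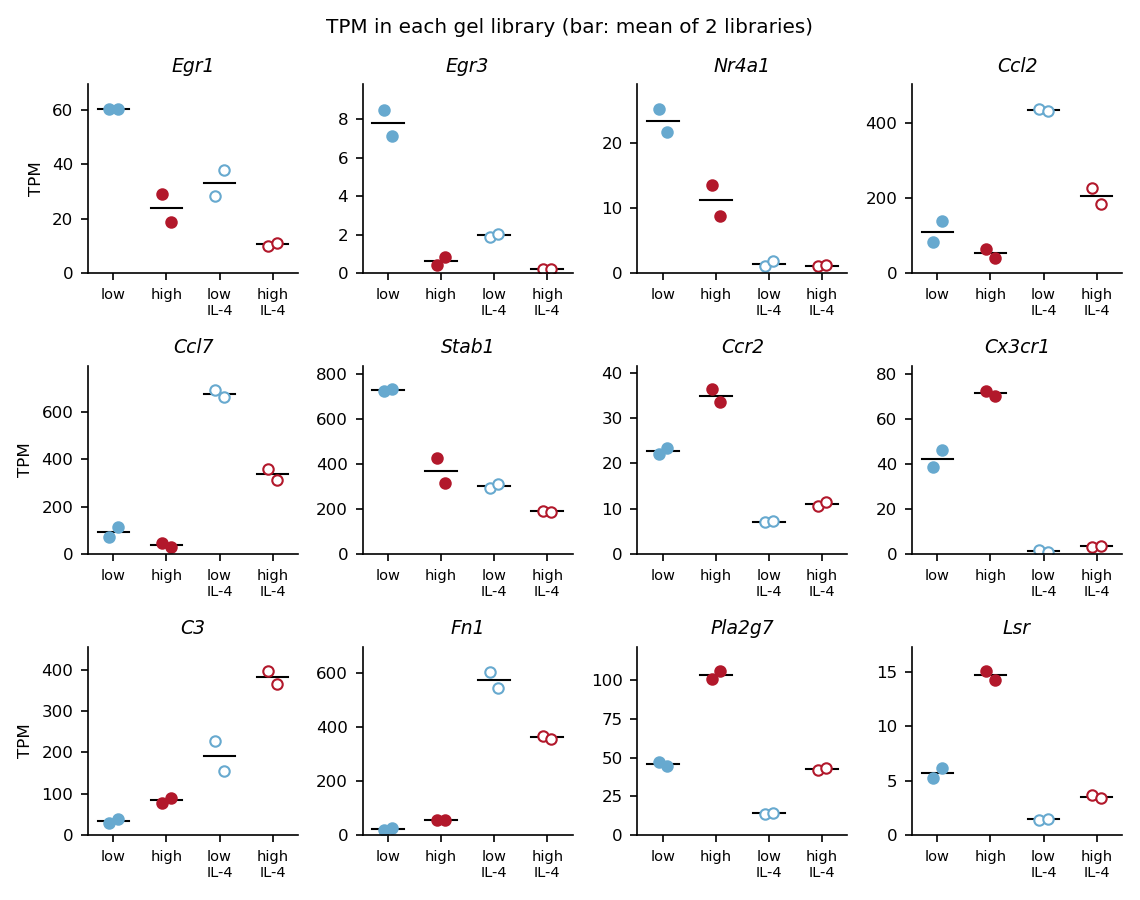
TPM of 12 genes in each of the 8 gel libraries, with filled points for untreated and open points for IL-4-treated BMDMs and a bar at the mean of 2 libraries. Without IL-4, the low- and high-collagen points of each gene shown do not overlap. Most of these genes were chosen by a rule that required no overlap, so this is no further support for their calls. The axes start at 0 and differ between genes.

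Integrins link the matrix to the cytoskeleton. Of 15 subunits tested, 4 were called higher and 0 lower, with a median of 0.19, and the counts were the same after median-ratio rescaling. They were subunits of leukocyte and laminin-binding integrins. Itgal, a partner of Itgb2, was at 17.1 and 17.9 TPM in low-collagen gels and at 30.0 and 25.5 TPM in high-collagen gels (0.63, SE 0.20, limma adjusted p = 0.190). Itgam, another partner of Itgb2, was at 297 and 330 TPM against 400 and 391 TPM (0.34, SE 0.0823, limma adjusted p = 0.118), although 68.1% of its 31-base words also occur in other annotated transcripts, so reads may be divided between them. Itga6, a laminin receptor subunit, rose by 0.30 and Itgb7 by 0.54 (limma adjusted p = 0.196 and 0.154). The calls lay near the threshold, and 0 were left with no filter, with no mean-variance trend or without either high-collagen library, 1 without low untreated replicate 2, and 0 higher and 1 lower without low untreated replicate 1.

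Receptors for fibrillar collagen differed widely in level. The beta subunit shared by collagen-binding integrins, Itgb1, was at 241 and 249 TPM in low-collagen gels and at 236 and 255 TPM in high-collagen gels (0.00, SE 0.0614, limma adjusted p = 0.992). Its collagen-binding partners were scarce: Itga1 was at most 0.213 TPM and Itga2 at most 0.131 TPM, Itga11 was listed at 0 in the 4 libraries, and Itga10 lay between 0.889 and 1.15 TPM. The collagen receptor tyrosine kinase Ddr1 was listed at 0 in the 4 libraries. The related Ddr2 was at 2.74 and 0 TPM in low-collagen gels and at 0.0438 and 2.45 TPM in high-collagen gels, and did not pass the filter on low values. The inhibitory collagen receptor Lair1 was at 75.2 and 79.5 TPM against 75.4 and 79.9 TPM (0.00, limma adjusted p = 0.987). Replicates of Itgb1 and Lair1 differed by more than the means of the densities did.

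Scavenger receptors and adhesion partners gave a mixed picture. Of 16 non-integrin receptors for collagen and matrix, 2 were called higher and 3 lower, with a median of 0.01, and without either high-collagen library 0 were higher and 1 lower, with 1 higher without either low-collagen library. Stab1, a receptor that clears matrix fragments and modified proteins, was at 726 and 736 TPM in low-collagen gels and at 426 and 317 TPM in high-collagen gels (−0.99, SE 0.122, limma adjusted p = 0.0301). Its low-collagen libraries were nearly equal and its high-collagen ones were both far below. Marco, a class A scavenger receptor, fell by 0.61 (limma adjusted p = 0.134). Cd36, a receptor for thrombospondin and fatty acids, was at 95.2 and 115 TPM against 151 and 150 TPM (0.52, SE 0.0896, limma adjusted p = 0.0615).

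Actin cytoskeletal genes included more falls than rises, as did all protein-coding genes tested, with 4.83% called lower and 3.20% higher. Of 51 actin and adhesion genes tested, 3 were called higher and 9 lower (4 and 5 after median-ratio rescaling), with a median of −0.05, close to the −0.02 of all genes. Flna, an actin cross-linking protein, was at 109 and 129 TPM in low-collagen gels and at 78.4 and 85.6 TPM in high-collagen gels (−0.52, SE 0.111, limma adjusted p = 0.0827). Pfn1, which feeds actin monomers to growing filaments, was at 755 and 772 TPM against 608 and 507 TPM (−0.46, SE 0.0882, limma adjusted p = 0.0709). Actb, the main cytoplasmic actin and named after its values were seen, was at 2326 and 2376 TPM against 1958 and 1763 TPM (−0.34, limma adjusted p = 0.0709). These 3 genes were lower in both high-collagen libraries than in either low-collagen library. Among the rises, Rac2, a GTPase of blood cells, went from 156 and 144 TPM to 196 and 186 TPM (0.34, limma adjusted p = 0.0709), and Pdlim7, an actin-associated adaptor, rose by 0.63 (limma adjusted p = 0.128). The 9 falls were 6 with no filter, 2 with no mean-variance trend, 5 without high untreated replicate 1, 0 without high untreated replicate 2, 7 without low untreated replicate 1 and 1 without low untreated replicate 2, and the 3 rises were 2 or fewer in each of these fits.

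Microtubules are polymers of alpha- and beta-tubulin. Of 14 tested, 2 were called higher and 7 lower (2 and 6 after median-ratio rescaling), with a median of −0.24. Tuba1c was at 152 and 150 TPM in low-collagen gels and at 111 and 103 TPM in high-collagen gels (−0.49, SE 0.0662, limma adjusted p = 0.0400). Tuba1a was at 49.3 and 50.5 TPM against 37.6 and 33.5 TPM (−0.48, SE 0.0827, limma adjusted p = 0.0615). These alpha-tubulins share sequence, with 55.3% of the 31-base words of Tuba1c and 77.0% of those of Tuba1a found in other genes, so the split of reads between them is uncertain. Tuba4a, an alpha-tubulin with 2.80% of its words shared, was at 31.3 and 30.2 TPM against 39.9 and 42.7 TPM (0.41, SE 0.0948, limma adjusted p = 0.102). The 7 falls were 4, 1, 6 and 3 without high untreated replicate 1, high untreated replicate 2, low untreated replicate 1 and low untreated replicate 2. The 2 rises were 0, 0, 2 and 0 in the same order, and 1 with no filter.

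**Figure D3:**
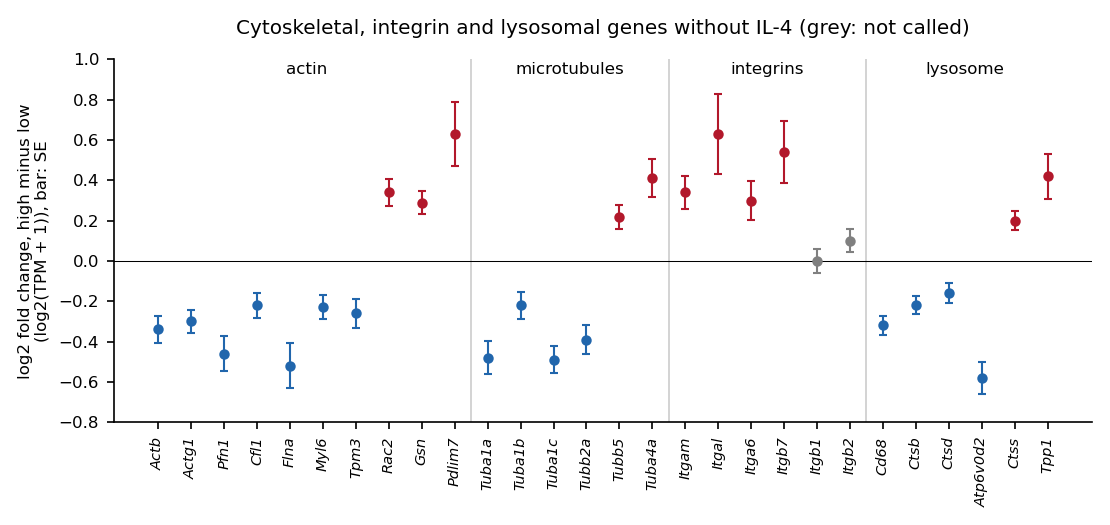
Log2 fold change of actin, microtubule, integrin and lysosomal genes between high- and low-collagen gels without IL-4, with bars of 1 SE from limma. Blue points were called lower, red points higher and grey points were not called. Actb and the alpha-tubulins Tuba1a and Tuba1c lie below 0, and Itgb1 lies at 0.

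Targets of the mechanically regulated factors SRF and YAP were counted next. Of 21 SRF targets tested, 3 were called higher and 8 lower (3 and 6 after median-ratio rescaling), with a median of −0.17. This median was −0.34 without high untreated replicate 1 and −0.01 without high untreated replicate 2. The 8 falls are all counted above, since Egr1, Egr2, Egr3, Fosb and Ier2 belong to the immediate early list and Actb, Actg1 and Flna to the actin list. They were 7, 3, 7 and 4 without high untreated replicate 1, high untreated replicate 2, low untreated replicate 1 and low untreated replicate 2, and the 3 rises were 1 or fewer in each of these fits. The smooth muscle actin gene of the list went the other way: Acta2 was at 1.25 and 0.579 TPM in low-collagen gels and at 2.39 and 2.64 TPM in high-collagen gels (0.90, SE 0.249, limma adjusted p = 0.146). Of 6 YAP and TEAD targets, 1 was called, Axl, a receptor tyrosine kinase for apoptotic cells, at 33.3 and 34.6 TPM against 51.6 and 48.7 TPM (0.55, SE 0.129, limma adjusted p = 0.108), with 0 of the 6 called with no filter. Yap1 itself was at most 0.25 TPM and Wwtr1 at most 0.0406 TPM in the 4 libraries. The stretch-activated channel Piezo1 was at 37.9 and 30.6 TPM against 34.7 and 35.9 TPM (0.05, SE 0.164, limma adjusted p = 0.916). The values of Piezo1 overlapped between densities. The cation channel Trpv4 was at 8.66 and 10.3 TPM against 10.6 and 9.35 TPM (0.07, limma adjusted p = 0.849). Of 17 mechanosensitive channels and YAP machinery genes, 1 was called, Tmem63b, a channel opened by osmotic swelling (0.45, limma adjusted p = 0.110). In each of the 4 fits without a library, 0 members of the YAP target list and 0 of the channel list were called.

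Matrix glycoproteins include fibronectin. Of 10 tested, 4 were called higher and 1 lower (4 and 0 after median-ratio rescaling), with a median of 0.23, and the 4 were 2 without high untreated replicate 1, high untreated replicate 2 or low untreated replicate 1. Fn1 encodes fibronectin, which cells assemble into fibrils alongside collagen. It was at 20.3 and 25.6 TPM in low-collagen gels and at 55.3 and 55.1 TPM in high-collagen gels, and was called under each of the 17 alternative fits. Thbs1, encoding the adhesion-modulating thrombospondin 1, was at 438 and 435 TPM against 668 and 528 TPM (0.44, SE 0.126, limma adjusted p = 0.155). Ecm1, a secreted matrix protein, was at 140 and 137 TPM against 197 and 181 TPM (0.45, SE 0.0665, limma adjusted p = 0.0497). For these 3 genes the high-collagen libraries were above the low-collagen ones. Lgals3, the lectin galectin-3, fell by 0.38 (limma adjusted p = 0.0650).

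Matrix-degrading enzymes showed changes in both directions. Over all protein-coding genes 3.20% were called higher and 4.83% lower. Of 22 proteases and inhibitors tested, 3 were called higher and 2 lower (2 and 1 after median-ratio rescaling), with a median of 0.02. These were 1 higher and 0 lower without high untreated replicate 1 and 0 and 0 without high untreated replicate 2. Mmp12, the macrophage elastase, was at 61.6 and 62.4 TPM in low-collagen gels and at 86.2 and 101 TPM in high-collagen gels (0.58, SE 0.0962, limma adjusted p = 0.0585). Ctsk, a cathepsin that cuts collagen, was at 2.14 and 2.18 TPM against 4.55 and 4.35 TPM (0.79, SE 0.142, limma adjusted p = 0.0674). Mmp27 was at 36.9 and 44.9 TPM against 24.9 and 23.5 TPM (−0.73, SE 0.140, limma adjusted p = 0.0709). The densities did not overlap for any of these 3 genes.

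Lysosomal genes had 2 calls higher and 13 lower among 47 tested, with a median of −0.10, where 3.20% and 4.83% of all protein-coding genes were called. The lysosomal counts were sensitive to scaling, with 1 higher and 4 lower after median-ratio rescaling. Cd68, a lysosomal membrane glycoprotein of macrophages, was at 1771 and 1826 TPM in low-collagen gels and at 1418 and 1463 TPM in high-collagen gels (−0.32, SE 0.0465, limma adjusted p = 0.0488). Atp6v0d2, a subunit of the proton pump, was at 78.4 and 71.0 TPM against 47.2 and 51.7 TPM (−0.58, SE 0.0792, limma adjusted p = 0.0400). Both were lower in each high-collagen library and called under each of the 17 alternative fits. The 13 falls were 4 with no filter and 2 with no mean-variance trend. Leaving out high untreated replicate 1 or 2 left 2 falls, and leaving out low untreated replicate 1 or 2 left 6 or 4.

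Among macrophage identity genes, 5 of 16 were called higher and 1 lower (3 and 1 after median-ratio rescaling), with a median of 0.05. The 5 calls higher were 0 without either high-collagen library or with no mean-variance trend, 1 without low untreated replicate 1 or with no filter, and 2 without low untreated replicate 2. Lyz2, encoding lysozyme, was at 38487 and 41170 TPM in low-collagen gels and at 48877 and 48901 TPM in high-collagen gels (0.30, SE 0.0562, limma adjusted p = 0.0709), but was not called after median-ratio rescaling (log2 fold change 0.32, limma adjusted p = 0.249, where the alternatives spanned 0.023 to 1.00). Adgre1, which encodes F4/80, was at 597 TPM in both low-collagen libraries and at 685 and 692 TPM in high-collagen gels (0.21, limma adjusted p = 0.139). Csf1r, the receptor for the growth factor that sustains macrophages, was at 1624 and 1642 TPM against 1929 and 1779 TPM and was not called (0.18, limma adjusted p = 0.227). Its ligand gene Csf1 was at 14.5 and 17.8 TPM against 6.82 and 9.88 TPM (−0.89, SE 0.20, limma adjusted p = 0.0962). Of 27 growth factors and receptors, 1 was called higher and 5 lower, with a median of −0.03, and the 5 were 1, 1, 4 and 1 without high untreated replicate 1, high untreated replicate 2, low untreated replicate 1 and low untreated replicate 2.

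C3, the central complement component, was at 29.7 and 39.9 TPM in low-collagen gels and at 77.6 and 89.7 TPM in high-collagen gels (1.25, SE 0.194, limma adjusted p = 0.0497). Cfp, encoding properdin, which stabilises the enzyme that cleaves C3, went from 802 and 800 TPM to 616 and 512 TPM (−0.51, SE 0.0867, limma adjusted p = 0.0611). Of 15 complement genes, 2 were called higher and 1 lower, with 0 higher without high untreated replicate 2 and 1 without high or low untreated replicate 1. Of 13 genes of MHC class II presentation, 3 were called higher and 1 lower (2 and 0 after median-ratio rescaling), with a median of 0.20. The MHC class II calls higher were 0 without high untreated replicate 1, high untreated replicate 2 or low untreated replicate 2, 5 without low untreated replicate 1, and 1 with no filter or with no mean-variance trend. H2-Ob, a modulator of peptide loading, was at 11 and 9.16 TPM against 17.2 and 19.6 TPM (0.81, SE 0.233, limma adjusted p = 0.158).

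Among genes of metabolism, Fabp5, a fatty acid carrier, was at 847 and 905 TPM in low-collagen gels and at 500 and 547 TPM in high-collagen gels (−0.74, SE 0.0621, limma adjusted p = 0.00713). Of 24 genes of fatty acid uptake and storage, 2 were called higher and 2 lower, with a median of 0.01, and 0 higher and 1 lower without either high-collagen library and 1 higher without either low-collagen one. Of 24 glycolysis genes, 2 were called higher and 4 lower (2 and 1 after median-ratio rescaling), with a median of −0.02. Over all protein-coding genes 3.20% were called higher and 4.83% lower. The 4 glycolysis falls were 0 without either high-collagen library, with no filter or with no mean-variance trend, 1 without low untreated replicate 1 and 2 without low untreated replicate 2, and the 2 rises were 1 or fewer in each of these fits. Sterol synthesis and uptake had 0 higher and 1 lower of 26, and hypoxia-responsive genes 0 higher and 1 lower of 24 (1 and 0 after median-ratio rescaling), and both lists had 0 called without either high-collagen library. Among 27 NRF2 and iron genes, 2 were called higher and 4 lower, with a median of 0.06. Without high untreated replicate 1 0 were higher and 2 lower, without high untreated replicate 2 or low untreated replicate 2 0 and 1, and without low untreated replicate 1 2 and 1. Hmox1, which degrades haem, was at 541 and 543 TPM against 394 and 368 TPM (−0.51, SE 0.0546, limma adjusted p = 0.0187). Tfrc, the transferrin receptor, was at 16.0 and 14.1 TPM against 9.95 and 7.07 TPM (−0.77, SE 0.160, limma adjusted p = 0.0824).

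DNA replication genes had 1 higher and 1 lower of 35, and mitosis genes 1 higher and 2 lower of 30, each with a median of −0.06, and both lists had 0 called without either high-collagen library. The unfolded protein response had 0 of 20 called by limma, where 8.02% of all genes tested were called. Over all protein-coding genes tested, 3.20% were called higher and 4.83% lower. The integrated stress response had 1 higher and 4 lower of 29 (0 and 2 after median-ratio rescaling), and 2 or fewer lower in each fit without a library. Interferon-stimulated genes had a median of −0.28 over 48 tested, with 0 called higher and 1 lower, Cxcl10 (0 and 2 after median-ratio rescaling). The interferon median depended on single libraries, at −0.69 with 5 lower without low untreated replicate 1 and at 0.08 with 0 lower without low untreated replicate 2.

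**Figure D4:**
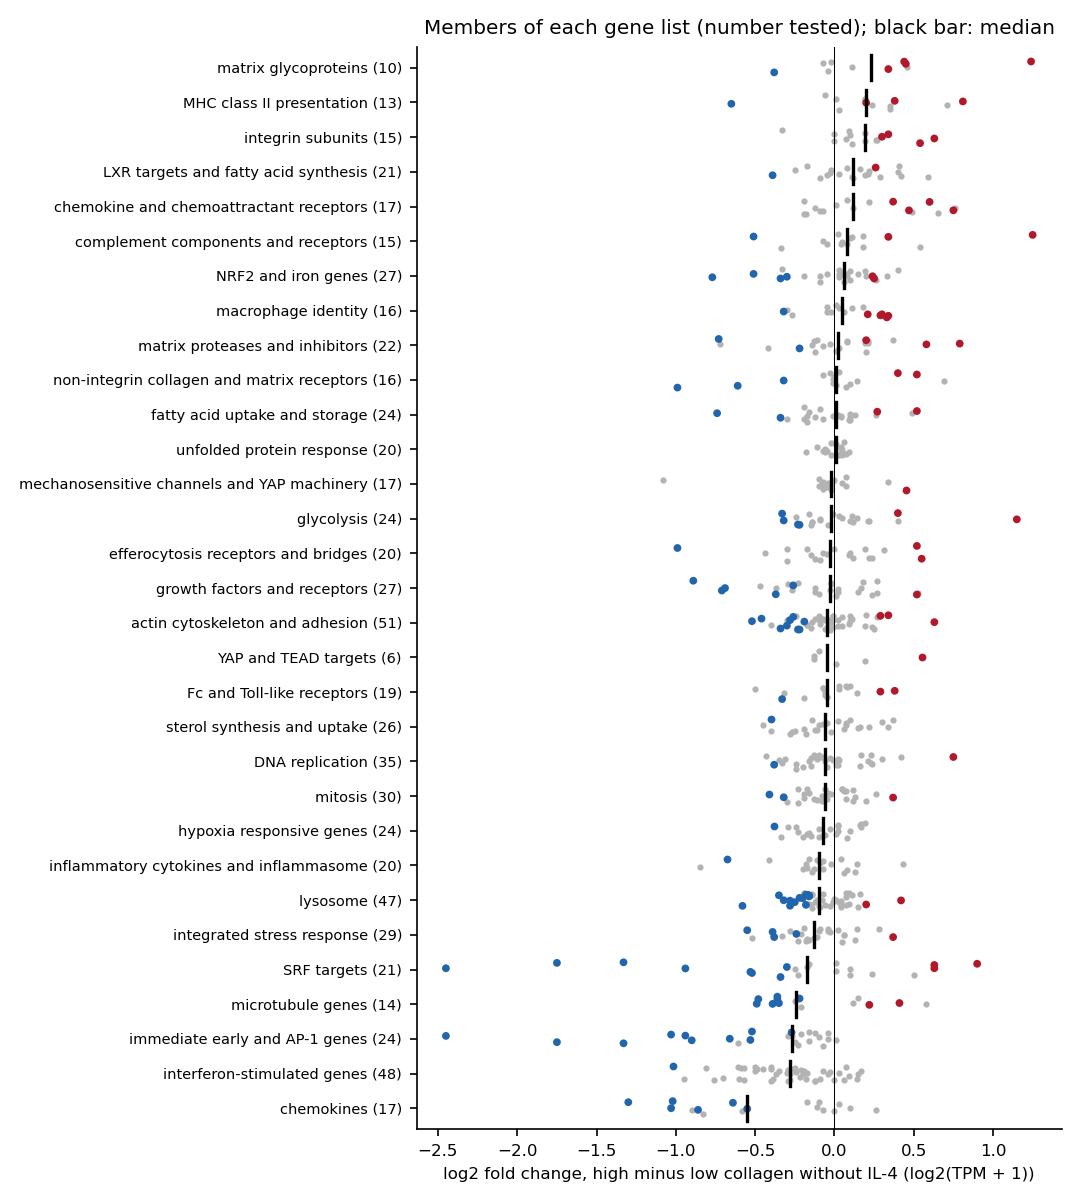
Log2 fold change between high- and low-collagen gels without IL-4 for the tested members of each gene list in which at least 6 averaged 1 TPM or more in the untreated gel libraries, with the number tested in parentheses, called members in red (higher) or blue (lower) and a black bar at the median. Among the lists shown, chemokines have the lowest median at −0.55 and matrix glycoproteins the highest at 0.23. This order changes when a library is left out. Without low untreated replicate 2 chemokines are at −0.11 and microtubule genes at −0.24. Without low untreated replicate 1 matrix glycoproteins are at 0.16 and MHC class II genes at 0.21.

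Among called genes averaging 5 TPM or more in the 4 libraries and with no overlap between densities, the 12 largest rises came from genes of varied function. Pla2g7, a secreted phospholipase that degrades platelet-activating factor, was at 46.9 and 44.3 TPM in low-collagen gels and at 101 and 106 TPM in high-collagen gels (1.16, SE 0.0767, limma adjusted p = 0.00205). Lsr, a lipoprotein receptor, was at 5.22 and 6.15 TPM against 15.1 and 14.3 TPM (1.23, SE 0.148, limma adjusted p = 0.0285). Both were called under each of the 17 alternative fits. Prtn3, a granule protease of neutrophils and their precursors, was at 2.77 and 2.86 TPM against 7.90 and 9.49 TPM (1.34, SE 0.252, limma adjusted p = 0.0709), while the sum of the neutrophil markers was not higher in high-collagen gels. Slpi, a protease inhibitor, was at 6.77 and 9.32 TPM against 23.6 and 17.1 TPM. Fxyd2, a modulator of the sodium pump, rose by 1.54, from 13.4 and 5.28 TPM to 26.7 and 26.4 TPM (SE 0.371, limma adjusted p = 0.113). Its low-collagen replicates differed by more than 2-fold. Stard10, Cmtm8, St18 and Prkar1b rose by 1.46, 1.21, 1.20 and 1.18.

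Among the 12 largest falls chosen by the same limits, Cnrip1, which binds the tail of a cannabinoid receptor, was at 48.0 and 53.3 TPM in low-collagen gels and at 25.4 TPM in both high-collagen libraries (−0.97, SE 0.0899, limma adjusted p = 0.00985). Qtrt2, a subunit of the enzyme that places queuosine in transfer RNA, was at 8.80 and 7.46 TPM against 3.56 and 3.65 TPM (−0.98, SE 0.146, limma adjusted p = 0.0497). Cox7a1, Tnni3 and Tmem191c fell by 1.00, 1.04 and 1.14. The predicted genes Gm17374 and Gm10974 had the largest fitted changes among the genes so chosen, with uneven values. Gm17374 was at 2.41 and 24.8 TPM against 0 in both high-collagen libraries, and Gm10974 was at 0 and 5.00 TPM against 26.2 and 11.8 TPM. Gm2026 shares 99.0% of its 31-base words with other genes, so its fall of 0.98 cannot be assigned to it alone.

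The collagen effect was then read in the libraries with IL-4, which are separate from the untreated ones. Of the 896 protein-coding genes called without IL-4, 779 (86.9%, exact 95% interval 84.6% to 89.1%, which treats genes as independent) had the same sign with IL-4, against 64.3% of all 11153. The share was 92.4% for the genes called higher and 83.3% for those called lower, and 60.4% of all protein-coding genes were positive with IL-4. Across the called genes the Pearson correlation of the fold changes was 0.71, and across all protein-coding genes 0.40, with genes not being independent replicates. With IL-4, limma called 2412 protein-coding genes (21.6%), and 478 genes were called in both with the same direction, which is 53.3% of those called without IL-4 and 19.8% of those called with it. Another 16 were called in both with opposite directions. Pla2g7 had a log2 fold change of 1.55 with IL-4 and Egr1 of −1.56, and neither was called in the interaction described next (limma adjusted p = 0.364 and 0.833). Stab1 and C3 kept their directions at −0.67 and 1.01.

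The difference between these effects was tested in limma as an interaction between collagen density and the cytokine. This interaction was called for 43 genes (0.363%), 15 of them protein-coding genes also called without IL-4. The 43 included Retnla, Ear2 and Rnase2a, which passed the filter on low values only through the libraries with IL-4. With the filter on the 4 untreated libraries the count was 28, and with a block on replicate number 18. Fn1, higher in high-collagen gels when untreated, stood at 607 and 547 TPM at low density given IL-4, and at 368 and 357 TPM at high density (interaction −1.91, SE 0.151, limma adjusted p = 0.0147). Slc40a1, the iron exporter, was at 381 and 373 TPM against 298 and 299 TPM without IL-4, and at 67.9 and 77.2 TPM against 111 and 119 TPM with it (interaction 0.99, SE 0.107, limma adjusted p = 0.0326). In both genes the order of the densities was opposite with and without IL-4. Ch25h, an enzyme making a hydroxylated cholesterol, was at 3.27 and 4.04 TPM against 10.6 and 6.04 TPM without IL-4. With IL-4 it was at 61.7 and 53.5 TPM against 32.2 and 30.6 TPM (interaction −1.81, SE 0.312, limma adjusted p = 0.165). The count of 43 was 14 without high untreated replicate 1 and 16 without low untreated replicate 2.

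**Figure D5:**
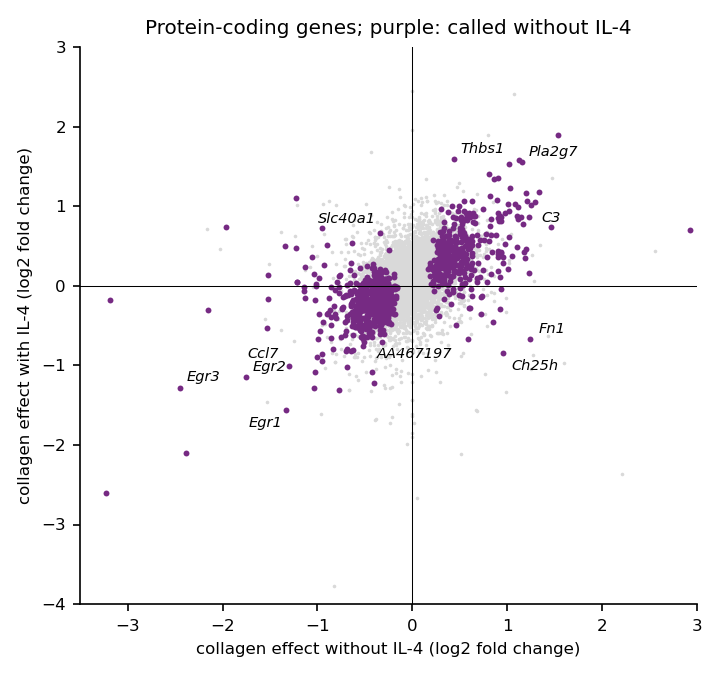
Log2 fold change between high- and low-collagen gels without IL-4 (horizontal) and with IL-4 (vertical) for protein-coding genes, from separate libraries. Purple points are the 896 genes called without IL-4, of which 86.9% have the same sign on both axes. Fn1, Ch25h and AA467197 lie at the lower right and Slc40a1 at the upper left.

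Genes known to rise with IL-4 were at low levels in these untreated libraries. Retnla was at most 0.389 TPM, Rnase2a at most 0.273 TPM, Ear2 at most 0.616 TPM and Chil3 between 1.78 and 3.03 TPM. Retnla, Rnase2a and Ear2 passed the filter on low values only through the libraries with IL-4, and no comparison of densities was read from them. Chil3 was not called. Mrc1, the mannose receptor, was at 327 and 404 TPM in low-collagen gels and at 377 and 348 TPM in high-collagen gels (−0.01, limma adjusted p = 0.989). Values of Mrc1 overlapped between the densities.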

How the data were processed

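Stranded mRNA libraries were sequenced, and the authors ran kallisto (0.46.1 in the submitters' processing notes) on GRCm38 transcripts and deposited TPM per gene. How transcripts were summed to genes is not given in the sources used here. Repeated lines (129) were collapsed to 34327 genes, and GENCODE annotation gave biotypes. With limma 3.58.1 in R 4.3.3, log2(TPM + 1) of the 8 gel libraries was fitted with a mean per condition, variances moderated along a trend with the mean, and Benjamini-Hochberg adjustment over the 11852 genes averaging 1 TPM or more, a filter that some list members passed only through libraries with IL-4. Members and lists were chosen with earlier results of these data known. The named genes were the 12 largest rises and falls called at an average of 5 TPM or more with no overlap, up to 4 called members per list at 2 TPM or more, 29 set genes, the 5 largest TPM differences in each direction and genes with opposite collagen effects with IL-4. Fos, Actb, Dusp5, Actg1, Myl6, Ier2, Myc, Ccl8, Ccl17 and Ccl22 were added after their values were seen, and the plot of cytoskeletal genes shows further list members. Where a symbol had several identifiers, a single identifier entered its list. Alternatives changed the pseudocount, filter, scaling, GC and length correction, variance model, libraries, weights and threshold. Some genes are not reported here.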

Additional observations from a re-analysis of the deposited data

Results flagged for a closer look

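For 12 named genes limma called an interaction between collagen density and IL-4, given here as the effect with IL-4 minus the effect without it on the log2 scale. Among genes called without IL-4, it was −1.91 for Fn1, −1.81 for Ch25h, −1.27 for AA467197, −0.95 for Cisd1, 0.99 for Slc40a1, 1.15 for Thbs1 and 0.43 for Hmox1. Thbs1 rose with collagen in both, by 0.44 without IL-4 and by 1.59 with it. Of those not called without IL-4, Ccl24 was at −2.94 and Chil3 at −1.49. Untreated, Ccl24 lay between 0.353 and 3.13 TPM and Chil3 between 1.78 and 3.03 TPM. With IL-4 their low-collagen means were 74.8 and 1836 TPM. At the untreated levels log2(TPM + 1) compresses a collagen effect, so these interactions are an uncertain measure of an effect that differs with IL-4. Chil3 also shares 41.5% of its 31-base words with other genes. The fitted values were −2.72 for Retnla, −2.63 for Ear2 and −1.24 for Rnase2a. These 3 genes were at or near 0 in untreated gels and passed the filter on low values only through the libraries with IL-4, so their values are no measure of a collagen effect that differs with IL-4.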

How the results depend on the processing

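Against 951 calls (357 protein-coding higher, 539 lower), other fits gave totals of 567 (210 and 281) with no filter, 548 (223 and 294) with no mean-variance trend and 371 (131 and 189) with only the 4 compared libraries, which leave fewer samples for the spread. At an adjusted p under 0.05 the counts were 63 (16 and 40), and at an adjusted p under 0.2 with at least a 2-fold change they were 93 (30 and 28). Quantile normalization gave 570 higher. With the replicate block the counts were 586 (215 and 324), and 18 for the interaction. The labels do not say whether the numbers pair libraries. Deviations of same-numbered low- and high-collagen libraries without IL-4 correlated at 0.04 across genes. Over all pairs of gel conditions the lowest correlation was −0.124 and the highest 0.04. These values cannot tell whether same-numbered libraries share an origin. Leaving out a library gave 102 to 649 calls, 19 to 205 higher and 53 to 389 lower, with the lone sample assumed to vary like the other groups. Against 43 interaction calls there were 66 with no filter, 28 with the filter on the 4 untreated libraries, 26 with no trend, 95 with all 12 libraries and 14 to 49 without a library, and the interaction has no value with only the 4 compared libraries. The same-sign share of 86.9% was 82.9% with no filter and 80.1% to 92.0% without a library. The distance ratio of 1.11 ranged from 1.06 to 1.12. Of 108 named genes called, 18 were called under each of the 17 alternative fits they entered, and 36, 20, 66 and 48 without high untreated replicates 1 and 2 and low untreated replicates 1 and 2. Lyz2 was at 0.0 under quantile normalization, which gives the most abundant gene the same value in libraries it leads. Of 34 gene lists with a call, 28 had fewer calls with no filter, 23 with no trend, 26 with only the 4 compared libraries and 20 with the replicate block. Most of these lists also had fewer calls in each fit without a library. With all 12 libraries 19 lists had more calls and 2 fewer, and with GC and length correction 13 had more and 1 fewer. For the other changes the cause was not tested. TPM keep no depth, so counting error is unknown.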

Other observations

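Other lists held few calls, where 3.20% of all protein-coding genes were called higher and 4.83% lower. Efferocytosis receptors and bridging proteins had 2 members higher (Axl and Cd36) and 1 lower (Stab1) of 20 tested, and 2 and 2 after median-ratio rescaling, with 0 higher without either high-collagen library and 1 without either low-collagen one. Fc and Toll-like receptors had 2 higher and 1 lower of 19 (0 and 1 after median-ratio rescaling), with Cd14 at 367 and 349 TPM in low-collagen gels and at 472 and 405 TPM in high-collagen gels (0.29, limma adjusted p = 0.171), and 0 of that list were called without either high-collagen library or without low untreated replicate 2. Inflammatory cytokine and inflammasome genes had 0 higher and 1 lower of 20, Il1rn, the antagonist of the interleukin-1 receptor, at 10.7 and 14.0 TPM against 7.45 and 7.17 TPM (−0.68, limma adjusted p = 0.146), with 0 lower without either high-collagen library or low untreated replicate 2 and 2 without low untreated replicate 1. LXR targets and fatty acid synthesis genes had 1 higher and 1 lower of 21 (3 and 1 after median-ratio rescaling), the fall being that of Pltp, a phospholipid transfer protein, from 1266 and 1144 TPM to 966 and 876 TPM (−0.39, limma adjusted p = 0.0709). The LXR list had 0 higher in each fit without a library and 0 lower without high untreated replicate 2.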
